A study of Mus musculus with 6 samples.

Results

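Interferon response genes were followed in 3 groups of mouse bone marrow cells, as a list of 39 genes matched by symbol to the probe sets of a whole-transcript Affymetrix array. A gene was taken only where a probe set carried its symbol alone, and where several did, the brightest on average over the 6 arrays was used. In this way 36 of the 39 genes were measured, out of 19938 named genes in all; Isg15 and Gbp2 shared their probe sets with other symbols, Ifi44 had none listed, and these 3 were left out. Donors and recipients were C57BL/6 (B6) mice; the labels of every sample give the genotype WT and an age of 8 weeks without saying whose, and donors had been given 5-fluorouracil. A retrovirus brought GFP alone into the vector group's donor marrow, GFP and BCR-ABL into that of the BCR-ABL group, and GFP, BCR-ABL and Blk into that of the BCR-ABL-Blk group, before transplantation. The fusion kinase BCR-ABL drives chronic myeloid leukemia. Blk belongs to the Src family of kinases and is best known from B cells; which form of Blk was used is not given. After 14 days, GFP-positive marrow cells without lineage markers and with c-Kit and Sca-1 on their surface were sorted, and each group had 2 biological replicates, 1 array each. The labels call the vector cells HSCs and the other cells LSCs, and give no number of mice for a replicate. The cells of a group came from a transduced marrow graft and are not a defined line.

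Type I interferons bind a receptor whose Janus kinases activate the factor ISGF3, which holds STAT2 and IRF9 and binds the interferon-stimulated response element (ISRE) of target genes. Interferon gamma has a receptor of its own and acts on target genes through the gamma-activated sequence (GAS). The targets encode RNA sensors, enzymes and membrane proteins that hinder viruses, and feedback regulators of the pathway. In stem and progenitor cells of the marrow, interferons are known to alter cell cycling, and Sca-1, one of the sorting markers, is itself an interferon-induced surface protein.

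Promoter sequence is shown for the Ifitm genes, which lie side by side in RefSeq gene order with Ifitm1 between Ifitm2 and Ifitm3 and of which Ifitm1 alone passed the test between groups. It is shown also for Irf7 and Gbp3, which had large differences against vector, and for Ifit3, which differed most between the vector replicates. Each stretch of 200 bases runs from 170 bases before the RefSeq start to 30 bases from the start on (GRCm38.p6, a build that the deposited values do not name). They lie at chr7:140967906-140968105 (+ strand) for Ifitm1, chr7:140955932-140956131 (- strand) for Ifitm2, chr7:141010715-141010914 (- strand) for Ifitm3, chr7:141266395-141266594 (- strand) for Irf7, chr3:142559874-142560073 (+ strand) for Gbp3, and chr19:34583359-34583558 (+ strand) for Ifit3. Capitals mark matches on either strand to GAAA, NN and GAAA in a row, the core of an ISRE, or to TTCNNNGAA, the core of a GAS, where N is any base.
Ifitm1: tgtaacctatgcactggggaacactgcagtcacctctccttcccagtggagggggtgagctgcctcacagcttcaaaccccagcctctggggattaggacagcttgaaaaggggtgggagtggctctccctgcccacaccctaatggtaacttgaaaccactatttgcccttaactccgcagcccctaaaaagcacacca
Ifitm2: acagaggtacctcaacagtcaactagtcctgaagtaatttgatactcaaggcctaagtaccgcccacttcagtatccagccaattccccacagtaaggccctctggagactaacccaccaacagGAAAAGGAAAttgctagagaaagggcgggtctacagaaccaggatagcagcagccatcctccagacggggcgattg
Ifitm3: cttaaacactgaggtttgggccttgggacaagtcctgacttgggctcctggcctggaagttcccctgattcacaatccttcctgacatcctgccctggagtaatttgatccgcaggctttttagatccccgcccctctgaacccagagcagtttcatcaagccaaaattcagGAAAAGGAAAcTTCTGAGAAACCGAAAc
Irf7: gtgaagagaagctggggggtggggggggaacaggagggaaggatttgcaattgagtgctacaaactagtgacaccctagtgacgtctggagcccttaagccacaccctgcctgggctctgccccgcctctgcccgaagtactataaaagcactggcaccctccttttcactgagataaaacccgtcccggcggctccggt
Gbp3: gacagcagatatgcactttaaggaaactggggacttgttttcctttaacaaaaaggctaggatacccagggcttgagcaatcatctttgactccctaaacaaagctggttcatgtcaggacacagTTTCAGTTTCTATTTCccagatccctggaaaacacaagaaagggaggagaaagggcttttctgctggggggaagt
Ifit3: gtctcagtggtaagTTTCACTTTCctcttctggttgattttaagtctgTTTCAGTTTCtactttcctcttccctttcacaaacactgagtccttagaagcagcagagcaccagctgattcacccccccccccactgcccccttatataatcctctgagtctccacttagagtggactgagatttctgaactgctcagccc

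The Ifitm1 and Irf7 windows held no match to either motif. Ifitm2 held 1 ISRE core, which began 46 bases before the start. Ifitm3 held 2 ISRE cores, 2 and 19 bases after the start, and 1 GAS core that overlaps the second. Gbp3 held 2 overlapping ISRE cores on the reverse strand, which began 45 and 39 bases before the start, and Ifit3 held 2, which began 156 and 122 bases before it. Of the 36 measured members, 26 had promoter windows in the RefSeq table (250 bases before to 50 after the start). An ISRE core stood in a window of 11 of these 26 genes (42.3%), against 3.99% of the 27025 genes in the table, and a GAS core in 9 (34.6%), against 9.55%. By window, the ISRE core was found in 32.4% of the members' 34 windows and in 3.44% of all 32851, and the GAS core in 26.5% and 8.3%. The 11 genes with an ISRE core had a median difference between BCR-ABL and vector of −0.06 on the log2 scale, and the 15 genes without one −0.18. The 10 members with no window, among them Mx1, Mx2, Zbp1 and Parp14, had −0.36, and their motifs are not known here. The letters are a description of these windows and not a measurement of binding.

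Some facts of the arrays bear on every result. Medians of the deposited log2 values ran from 7.01 to 7.52 across arrays, so the values below were quantile normalized. Without that step BCR-ABL lay −0.11 from vector in the median gene, BCR-ABL-Blk 0.15 from vector, and BCR-ABL-Blk 0.25 from BCR-ABL. The probe set of Blk itself had means of 6.98 in BCR-ABL-Blk, 6.57 in BCR-ABL and 7.05 in vector cells, and differed by 0.41 between the groups with BCR-ABL (limma adjusted p = 0.999). Kit, the gene of the sorting marker c-Kit, read between 10.33 and 10.92 on all arrays. Ly6a, the gene of Sca-1, was looked for, but no probe set carried its symbol alone, so it was not measured. Cd34, a progenitor gene outside the sort, read between 11.54 and 11.97. The 7 measured markers of B lineage cells had a mean level of 10.69 and 9.05 on the vector arrays. They ran from the surrogate light chain gene Vpreb1, at 12.63 and 11.57 there, down to Cd79a, at 8.63 and 7.31. Vpreb1 read between 10.24 and 11.41 on the arrays of the groups with BCR-ABL. With 2 arrays in a group the precision is limited, with a median standard error of 0.129 on the log2 scale.

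**Figure D1:**
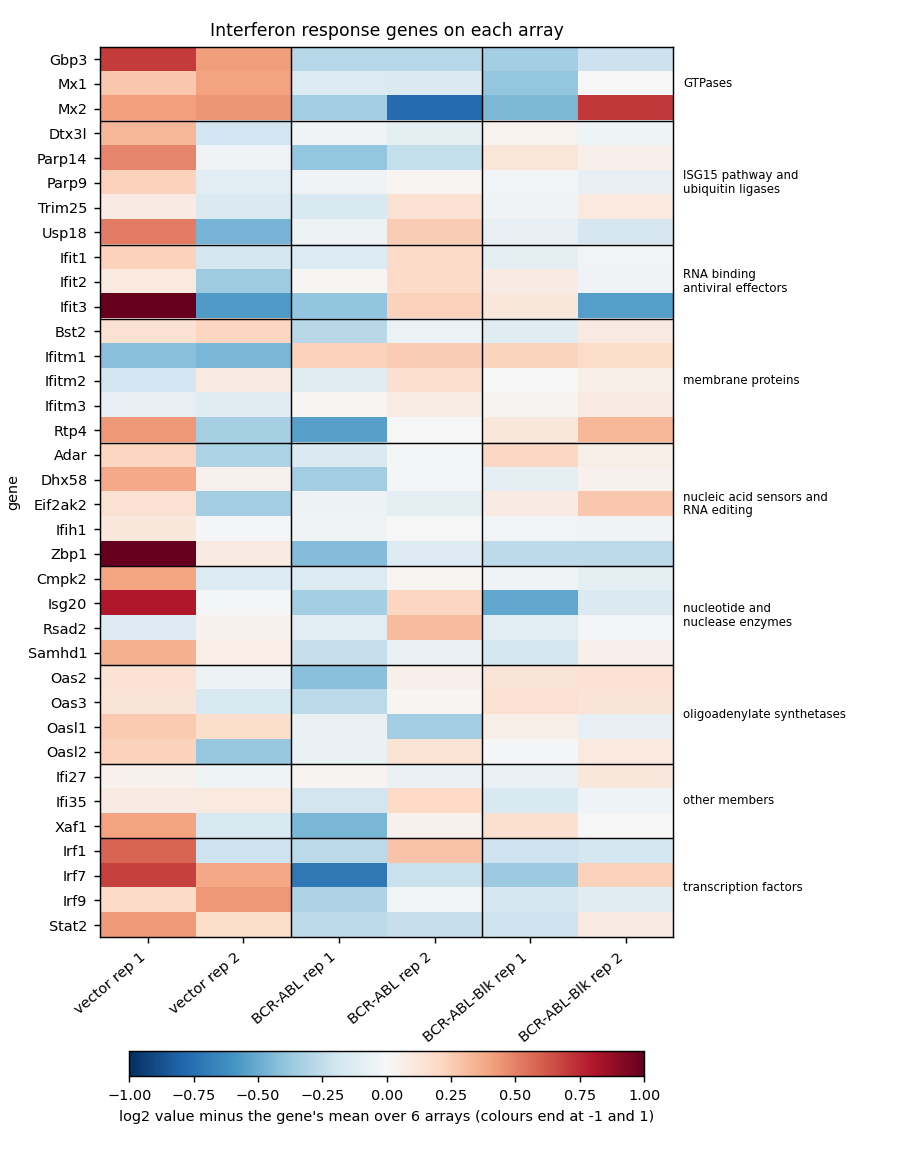
Quantile normalized log2 values of the 36 measured interferon response genes (rows, grouped by role) on the 6 arrays (columns), each minus the gene's mean over the arrays; red is higher and blue lower, and colours end at −1 and 1. Vector replicate 1 is the highest array for 22 genes and BCR-ABL replicate 1 the lowest for 17, and the Ifitm1 row runs the other way.

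In BCR-ABL cells the membrane protein gene Ifitm1 rose, and the interferon transcription factors and GTPases read lower than in vector cells without passing the test over all genes. Ifitm1 encodes a small membrane protein that hinders virus entry. It read 12.18 and 12.14 on the vector arrays and 12.83 and 12.85 on the BCR-ABL arrays, which did not overlap. The group means were 12.16 ± 0.03 and 12.84 ± 0.01 (SD, n = 2 each), a rise of 1.61-fold (log2 change 0.69, SE 0.04, limma adjusted p = 0.00191). The values lay so close together that the standard error rests on the intensity trend of the fit: without the trend the SE was 0.09 and the adjusted p = 0.0762. The call was lost also with each array centred on its median (log2 change 0.82, adjusted p = 0.246), on leaving out BCR-ABL replicate 1 (0.70, adjusted p = 0.0779) or replicate 2 (0.68, adjusted p = 0.0737); over 13 alternatives the change ran from 0.67 to 0.82 and the adjusted p from 1.05e-13 to 0.246. A further Ifitm1 probe set, which the choice of the brighter one left out, read 11.75 and 11.88 on the vector arrays and 12.67 and 12.76 on the BCR-ABL arrays, with means 0.91 apart.

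The neighbours of Ifitm1 differed less. Ifitm3, of the same family and with the best known antiviral role, read 12.66 and 12.62 on the vector arrays and 12.76 and 12.82 on the BCR-ABL arrays, which again did not overlap. Its difference of 0.15 (SE 0.04) did not pass (adjusted p = 0.311). Ifitm2 read 11.49 and 11.77 on the vector arrays and 11.56 and 11.85 on the BCR-ABL arrays, which overlapped, and all 3 of its probe sets gave differences of 0.06 or 0.07. The Ifitm genes are close paralogs, so how far their probe sets read each other's RNA is uncertain.

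**Figure D2:**
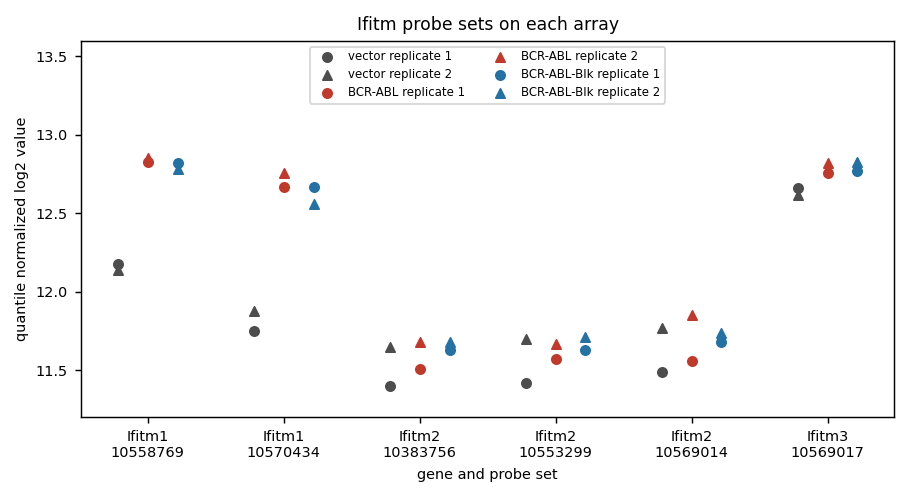
Quantile normalized log2 values of the 6 Ifitm probe sets (horizontal axis) on each array; colour gives the group, circles replicate 1 and triangles replicate 2, and the vertical axis does not start at 0. Both Ifitm1 probe sets show the 4 arrays with BCR-ABL above both vector arrays, by 0.69 and 0.91 for the means of BCR-ABL, while the Ifitm2 probe sets overlap between groups.

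Of the 36 members, Ifitm1 was called higher and 0 were called lower (limma, adjusted p under 0.05), where 0.12% of all named genes were called higher and 0.0251% lower. At an unadjusted p under 0.05, 2 members were higher, against 5.67% of all genes, and 11 lower (30.6%), against 2.96%. The lower count was 5 (13.9%, against 2.24% of all genes) without BCR-ABL replicate 1 and 17 (47.2%, against 3.96%) without vector replicate 2. Both BCR-ABL arrays lay below both vector arrays for 12 members (33.3%), against 14.9% of all genes, and above them for 2, against 22.1%. The median member differed by −0.18 and the median of all named genes by 0.02, and 27 of 36 members lay below 0, against 45.6% of all genes.

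All 4 transcription factors lay below 0, with a median of −0.52. Irf7, which switches on interferon alpha genes, read 9.20 and 8.90 in vector and 7.80 and 8.29 in BCR-ABL cells, and differed by −1.0 (SE 0.25, adjusted p = 0.253). Stat2, a subunit of ISGF3, read 8.99 and 8.75 against 8.30 and 8.33 (difference −0.56, SE 0.16, adjusted p = 0.338). Irf9, its DNA-binding partner, read 9.12 and 9.36 against 8.62 and 8.90 (−0.48, adjusted p = 0.424). For these 3 genes the groups did not overlap. Irf1, a factor that also answers interferon gamma, read 8.69 and 7.90 against 7.84 and 8.39, so that its groups overlapped (−0.18, adjusted p = 0.915); its other probe set differed by −0.33.

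The 3 GTPase genes lay below 0 too, with a median of −0.84, and their groups did not overlap. Gbp3, a guanylate-binding protein known to be induced by interferon gamma, read 9.22 and 8.94 in vector cells and 8.24 on both BCR-ABL arrays. Its difference of −0.84 (SE 0.15) had the smallest adjusted p among the members below 0 (0.108). Mx2 read 6.79 and 6.82 against 6.03 and 5.61 (−0.99, adjusted p = 0.429). Mx1 read 6.54 and 6.67 against 6.13 and 6.12 (−0.48, adjusted p = 0.328). The Mx genes encode dynamin-like proteins, and C57BL/6 mice are known to carry a deleted, inactive form of Mx1. Both lay under the level of the median named gene (7.50), and no measure of background was at hand.

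Sensors and effector enzymes were divided. Zbp1, a sensor of Z-form nucleic acid that can start cell death, read 8.94 and 8.03 in vector and 7.51 and 7.81 in BCR-ABL cells (−0.82, adjusted p = 0.431). Among RNA sensors, the helicase genes Dhx58 (LGP2) and Ifih1 (MDA5) differed by −0.40 and −0.06, the kinase PKR (Eif2ak2) by 0.02 and the RNA-editing enzyme Adar by −0.03. The oligoadenylate synthetase family ranged from −0.42 for Oasl1 through −0.22 for Oas2 and −0.11 for Oas3 to 0.11 for Oasl2. The Ifit genes, whose proteins bind viral RNA, gave 0.00 for Ifit1, 0.23 for Ifit2 and −0.39 for Ifit3. Of the nucleotide and nuclease enzymes, the dNTP hydrolase Samhd1 read 11.65 and 11.36 against 11.07 and 11.23 (−0.35, adjusted p = 0.473) and the exonuclease Isg20 differed by −0.46. Viperin (Rsad2) and the nucleotide kinase Cmpk2, adjacent genes, differed by 0.14 and −0.19.

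Most genes of the ubiquitin-like and ADP-ribose pathways lay near 0. Parp14, an ADP-ribosyltransferase, read 9.51 and 8.98 in vector and 8.63 and 8.78 in BCR-ABL cells (−0.55, adjusted p = 0.459), while its neighbours Dtx3l, a ubiquitin ligase, and Parp9, the partner of Dtx3l, differed by −0.14 and −0.07. Usp18, which strips ISG15 from proteins and restrains the type I receptor, differed by 0.08, and the ubiquitin ligase Trim25 by 0.03. Bst2, or tetherin, which holds budding viruses at the cell surface, read 10.57 and 10.63 against 10.14 and 10.36 without overlap (−0.35, adjusted p = 0.473). Rtp4 (−0.32), Xaf1 (−0.33), Ifi35 (−0.08) and Ifi27 (−0.02) overlapped between the groups.

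**Figure D3:**
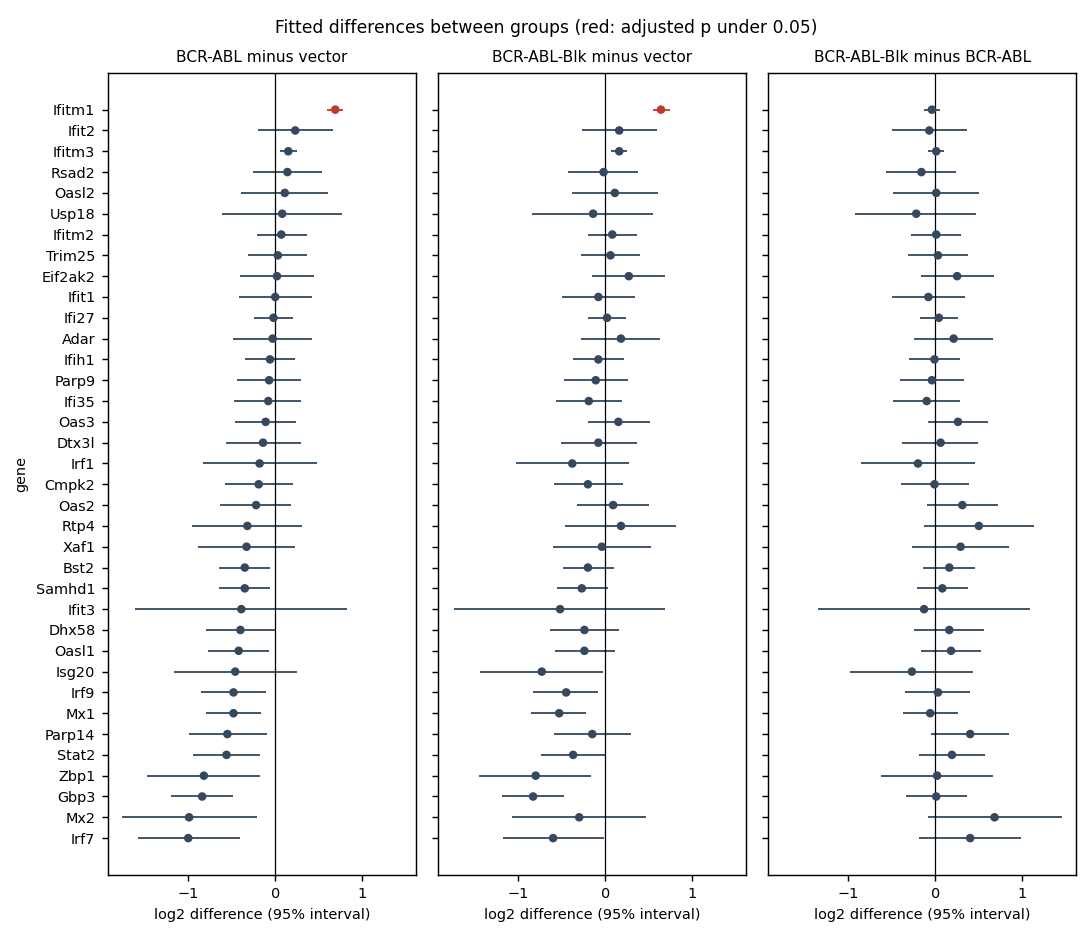
Fitted log2 differences with 95% intervals (horizontal axis) for the 36 genes (vertical axis, ordered by the difference between BCR-ABL and vector) in the 3 comparisons; red marks an adjusted p under 0.05. Ifitm1 is the red point, at 0.69 in the panel of BCR-ABL minus vector and 0.64 in that of BCR-ABL-Blk minus vector, and the lowest points of the former are Irf7, Mx2, Gbp3 and Zbp1.

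The vector replicates themselves differed in these genes. Replicate 1 lay above replicate 2 for 29 of 36 members (80.6%), against 51.5% of all named genes, with a median gap of 0.30 and of 0.01 over all genes. A gap of at least 0.5 was found for 13 members (36.1%), against 5.83% of all genes, and 0 members had a gap of −0.5 or less, against 2.69%. The widest gap was that of Ifit3, at 8.91 on replicate 1 and 7.18 on replicate 2 (1.73), followed by Usp18 (9.06 and 8.08), Zbp1 (8.94 and 8.03), Isg20 (10.28 and 9.46) and Irf1 (8.69 and 7.90). At the other end stood Ifitm2 (11.49 and 11.77), Irf9 (9.12 and 9.36), Rsad2 (7.98 and 8.15), Mx1 (6.54 and 6.67) and Bst2 (10.57 and 10.63), each higher on replicate 2. With 1 array on each side this gap has no test. Measured from the median of all genes it was 0.29 here, and 0.40 both with no normalization between arrays and with arrays centred on their medians.

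The BCR-ABL replicates were apart the other way, with replicate 2 above replicate 1 for most members: replicate 1 was higher for 7 of 36, with a median gap of −0.21 and of 0.03 over all genes. Ifit3 (7.35 and 7.97), Irf1 (7.84 and 8.39), Isg20 (9.14 and 9.69) and Rtp4 (9.92 and 10.46) showed it most. The BCR-ABL-Blk replicates had a median gap of −0.06, with Mx2 at 5.93 and 7.08 and Ifit3 at 7.86 and 7.19 as the widest in each direction. Over the 6 arrays, vector replicate 1 was the highest for 22 members, against 15.7% of all genes, and BCR-ABL replicate 1 the lowest for 17, against 10.4%.

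**Figure D4:**
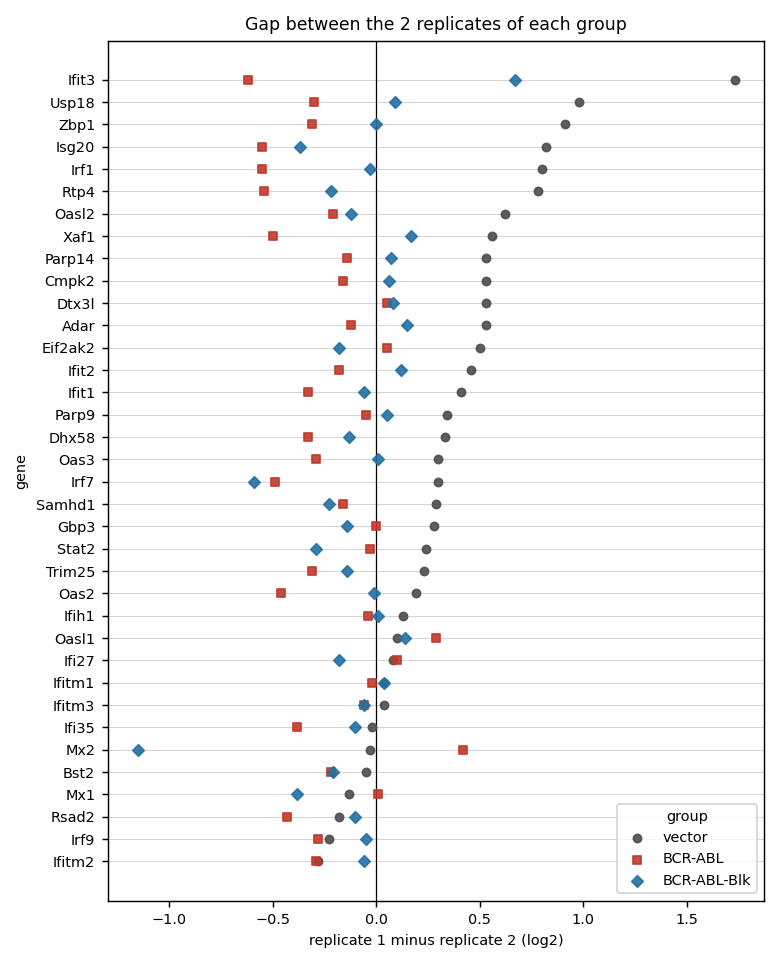
Gap between replicate 1 and replicate 2 (log2, horizontal axis) for each of the 36 genes (vertical axis, ordered by the vector gap); circles are vector, squares BCR-ABL and diamonds BCR-ABL-Blk. Vector gaps run from −0.28 to 1.73 with most above 0, and BCR-ABL gaps from −0.62 to 0.42 with most below 0.

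So the distance between the groups depended on which arrays were set side by side. BCR-ABL replicate 1 minus vector replicate 1 gave a median of −0.42 with 32 of 36 members below 0, against 42.1% of all genes. BCR-ABL replicate 1 minus vector replicate 2 gave −0.18 with 24 below 0, against 42.5%. BCR-ABL replicate 2 minus vector replicate 1 gave −0.26 with 29 below 0, against 49.6%. BCR-ABL replicate 2 minus vector replicate 2 gave 0.12 with 13 below 0, against 48.4%. The median of all genes lay between 0.0 and 0.04 in these pairings. With 1 vector array left out the fitted median was 0.01 (replicate 1) or −0.39 (replicate 2), and, with 1 BCR-ABL array left out, −0.06 (replicate 1) or −0.27 (replicate 2). Without vector replicate 1, 7 members still lay lower at an unadjusted p under 0.05 (19.4%, against 5.52% of all genes): Irf7, Irf9, Stat2, Mx1, Mx2, Gbp3 and Bst2. In the same fit Ifit2, Oasl2, Usp18, Ifitm1 and Ifitm3 lay higher at that level (13.9%, against 10.5% of all genes), and Ifit3 turned from −0.39 to 0.47. Gbp3 was at −0.70 (adjusted p = 0.0684) without vector replicate 1 and at −1.0 (adjusted p = 0.0373) without vector replicate 2, and Zbp1 at −0.36 and −1.29 (adjusted p = 0.367 and 0.0191). Without normalization between arrays Irf7, Mx2, Gbp3 and Zbp1 were called lower (adjusted p from 0.000561 to 0.0192), beside Ifitm1 called higher, where 225 of all genes were called lower and 176 higher, against 5 and 24 with normalization.

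Markers of other cell types differed between the same arrays, not all in the same direction. All 7 measured B lineage markers were higher on vector replicate 1 than on replicate 2, with a median gap of 1.62. Neutrophil markers ran the other way, with 0 of 8 higher on replicate 1 (median −0.40). Monocyte markers were split, with 2 of 6 higher on replicate 1 (median −0.33) and gaps from −1.24 to 1.73. Their mean level was 9.37 on both vector arrays. Median gaps above 0 were found also for stem and progenitor (0.31, 5 of 7 higher on replicate 1) and other dendritic markers (0.36, 5 of 5). The same held for erythroid (0.47, 4 of 5) and mast and basophil markers (0.35, 5 of 6). The gap was smaller for plasmacytoid dendritic (0.10, 5 of 7) and T and NK markers (0.03, 7 of 10). The B lineage markers had a mean level of 10.69 and 9.05 in vector, 7.67 and 8.12 in BCR-ABL, and 8.41 and 7.94 in BCR-ABL-Blk cells. All 7 measured markers of plasmacytoid dendritic cells, which are known for high Irf7 and Bst2, lay below 0 between BCR-ABL and vector (median −0.53). Of these, Bst2 (−0.35) is itself a member of the interferon list, so the lists are not separate for that gene. Irf8 (−1.33) stands also on the list of further interferon regulatory factors given below. The mean level of the 7 was 8.72 and 8.44 in vector, 7.97 and 7.95 in BCR-ABL, and 8.08 and 8.10 in BCR-ABL-Blk cells. The brightest of them were Bst2, Tcf4 and Irf8, with vector means of 10.60, 10.40 and 9.65. Siglech, a marker that defines these cells, read 7.48 and 7.37 on the vector arrays and 6.98 and 6.81 on the BCR-ABL arrays. On every array it lay under the level of the median named gene (7.50), and no measure of background was at hand. All 6 monocyte markers lay below 0 as well (median −0.82), and those of other dendritic cells had a median of −0.82 with 5 of 5 below 0. Flt3 (−0.20) is counted both there and on the stem and progenitor list. Of the other lists, the medians were −0.16 for T and NK cells (7 of 10 below 0), −0.21 for neutrophils (8 of 8), −0.51 for erythroid cells (5 of 5), 1.11 for mast cells and basophils (2 of 6) and 0.59 for the stem and progenitor list (2 of 7). Among all marker genes, Klrd1 of the T and NK list was called lower (−1.29, limma adjusted p = 0.0187) and Gzmb, a granule protease placed on the mast and basophil list, was called higher (3.25, adjusted p = 0.0187). The part of these cells in the interferon gene differences was not tested, and in sorted bulk RNA fewer cells of a type and less RNA per cell cannot be told apart.

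BCR-ABL-Blk cells were set against BCR-ABL cells to ask what added Blk does to the same genes, and no member passed. By limma 0 of 36 were called and 0 had an unadjusted p under 0.05, where 0.0% of all genes were called and 1.47% were higher and 2.49% lower at an unadjusted p under 0.05. The median member differed by 0.02, with 13 of 36 below 0, and the median gene by −0.01, with 54.3% below 0. The largest difference was that of Mx2, at 6.03 and 5.61 in BCR-ABL and 5.93 and 7.08 in BCR-ABL-Blk cells (0.68, 95% interval −0.09 to 1.46), whose groups overlapped. Rtp4, a chaperone of membrane receptors, read 9.92 and 10.46 against 10.58 and 10.80 without overlap (0.50, interval −0.13 to 1.13), and Parp14 8.63 and 8.78 against 9.14 and 9.07 (0.40, interval −0.05 to 0.85).

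The BCR-ABL-Blk arrays both exceeded the BCR-ABL arrays for 7 members (19.4%), against 14.0% of all genes: Stat2, Oas2, Oas3, Parp14, Rtp4, Eif2ak2 and Adar. They lay below for Usp18 and Ifitm1, against 20% of all genes. Ifitm1 read 12.82 and 12.78 in BCR-ABL-Blk cells, a difference of −0.04 with an interval of −0.13 to 0.05. For Irf7 (0.40, interval −0.19 to 0.98) and Ifit3 (−0.13, interval −1.35 to 1.09) the intervals were wide. Without normalization between arrays the median member differed by 0.27 and the median gene by 0.25, and Rtp4 was called higher (0.70, limma adjusted p = 0.00462), where 66 of all genes were called higher and 13 lower. At an unadjusted p under 0.05, 12 members (33.3%) were then higher, against 8.28% of all genes, and 0 lower, against 0.321%.

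BCR-ABL-Blk and vector cells were compared last, with the same vector arrays as above. Ifitm1 rose here too, from 12.16 ± 0.03 to 12.80 ± 0.03 (SD, n = 2 each; log2 change 0.64, SE 0.04, limma adjusted p = 0.00241). It was not called with each array centred on its median (0.60, adjusted p = 0.493) or without the intensity trend (adjusted p = 0.0857), and over 13 alternatives the adjusted p ran from 2.24e-17 to 0.493. Ifitm1 was 1 of 36 members called higher and 0 were called lower, against 0.0953% and 0.0451% of all genes. Its neighbour Ifitm3 read 12.77 and 12.83 against 12.66 and 12.62 (0.16, adjusted p = 0.255).

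Among the members below 0, Gbp3 read 8.18 and 8.31 in BCR-ABL-Blk cells (−0.83, adjusted p = 0.103), Zbp1 7.68 on both arrays (−0.80, adjusted p = 0.392) and Isg20 8.96 and 9.33 (−0.73, adjusted p = 0.507). Irf7 read 8.15 and 8.74 (−0.60, adjusted p = 0.509), Mx1 5.88 and 6.26 (−0.53, adjusted p = 0.236) and Irf9 8.76 and 8.81 (−0.45, adjusted p = 0.414). These 6 genes are the members that were lower at an unadjusted p under 0.05 (16.7%), against 4.11% of all genes. At that level 2 members were higher, against 5.31%. The arrays of the 6 did not overlap between the groups, which adds little to a choice made by p. The lower count was 2 (5.56%, against 3.81% of all genes) without BCR-ABL-Blk replicate 1 and 7 (19.4%, against 2.55%) without BCR-ABL-Blk replicate 2. It was 3 (8.33%, against 6.24%) when vector replicate 1 was left out and 12 (33.3%, against 5.23%) when vector replicate 2 was. Both BCR-ABL-Blk arrays lay below both vector arrays for 13 members (36.1%), against 17.5% of all genes, and above for 2, against 19.7%. The median member differed by −0.13, with 24 of 36 below 0, against 48.8% of all genes, and became 0.06 or −0.29 when vector replicate 1 or 2, in that order, was left out. With replicate 2 left out Gbp3 (−0.99, adjusted p = 0.0364) and Zbp1 (−1.27, adjusted p = 0.019) were called lower.

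**Figure D5:**
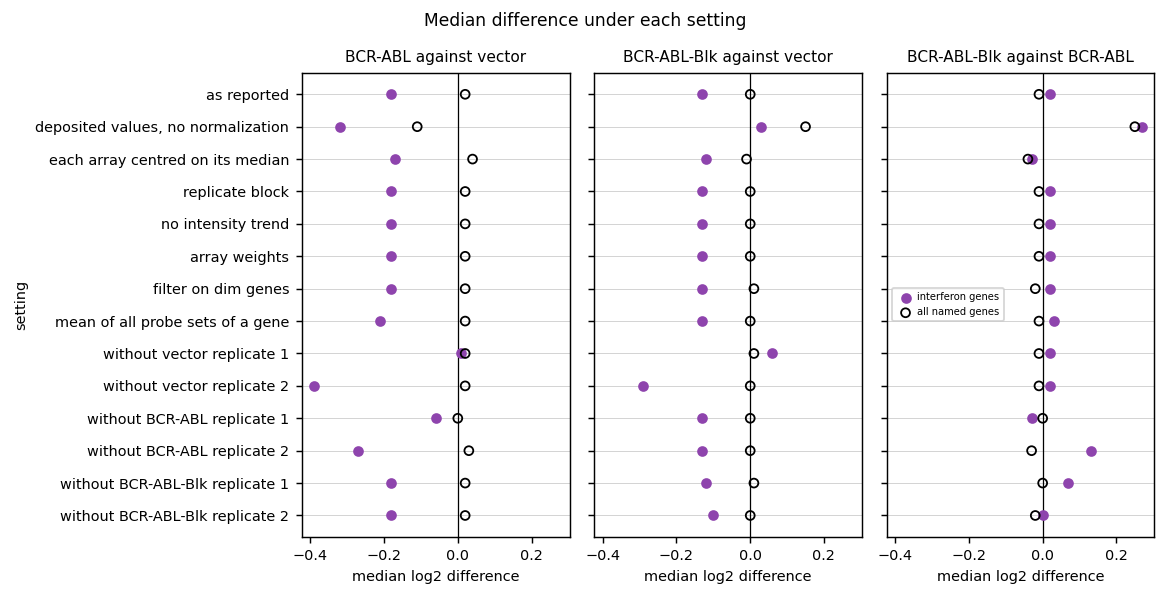
Median log2 difference of the 36 interferon genes (filled) and of all named genes (open) in the 3 comparisons (panels) under each setting (vertical axis). Against vector the interferon median moves from −0.39 to 0.01 in BCR-ABL and from −0.29 to 0.06 in BCR-ABL-Blk cells with the choice of vector array.

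Among other genes of the pathway none was called in any comparison, with the background of 2.96% of all genes lower and 5.67% higher at an unadjusted p under 0.05 between BCR-ABL and vector. Of 15 measured interferon genes themselves, 0 were called in any comparison (limma), with 1 at an unadjusted p under 0.05 between BCR-ABL and vector; Ifnb1, the beta interferon, read between 5.57 and 5.76 on all arrays. The 15 receptor and signalling genes had a median of 0.0 between BCR-ABL and vector, with 7 below 0, against 45.6% of all genes. Of them 0 were called and 2 were lower at an unadjusted p under 0.05 in that comparison. These were Ifngr1, a chain of the gamma receptor, at 11.16 and 11.30 against 10.88 and 10.83 (−0.38, adjusted p = 0.228), and Ifnar1, a chain of the type I receptor, at 9.40 and 9.33 against 9.09 and 8.84 (−0.40, adjusted p = 0.477). With Blk added, Ifngr1 read 10.62 on both arrays, which is −0.62 from vector (adjusted p = 0.0688). Of 18 sensors and adaptors 0 were called and 2 were lower at an unadjusted p under 0.05: Unc93b1, which carries nucleic acid receptors to endosomes (−0.91, adjusted p = 0.142), and the RNA receptor Tlr3 (−0.99, adjusted p = 0.313). Of 7 further interferon regulatory factors and their partners, Irf8, a factor of monocytes and dendritic cells, lay lowest, with means of 9.65 in vector and 8.32 in BCR-ABL cells (−1.33, adjusted p = 0.107). The median of the 7 was 0.02, with 3 below 0.

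A longer list of interferon-induced genes was measured for 58 of 69 genes. None was called between BCR-ABL and vector (limma), 46 lay below 0 with a median of −0.14, and 10 were lower and 2 higher at an unadjusted p under 0.05, against the same background. Ifi209 and Ifi205, of the AIM2-like nucleic acid sensor family, read 10.32 and 9.69 against 6.85 and 7.85 (−2.65, adjusted p = 0.0923) and 9.10 and 9.12 against 6.48 and 8.03 (−1.85, adjusted p = 0.197). As paralogs they may share signal, to an uncertain degree. Gbp4 was at −1.40 and Cxcl9 at −1.34, while Slfn2, a regulator of quiescence in lymphocytes, was at 8.64 and 7.54 against 9.42 and 9.36 (1.30, adjusted p = 0.232). The other Gbp genes of this list varied. Gbp8 was at −1.29 without overlap, while Gbp5 (−0.12), Gbp7 (−0.49) and Gbp9 (−0.67) overlapped between the groups. Like the members, 47 of these 58 genes were higher on vector replicate 1 than on replicate 2, with a median gap of 0.39 and the widest for the GTPase Iigp1 (3.10).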

How the data were processed

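Gene expression in 6 samples was read from the deposited table, which holds log2 expression of 35557 probe sets. The submitters' processing notes name Affymetrix Expression Console 1.1 and RMA; the genome build is not given in the sources used here. Probe sets were named from the platform annotation (23410 listed, 21789 with 1 symbol, 1621 with several, 12147 not listed), of which 21698 with 1 symbol were found in the RefSeq table (GRCm38.p6). Arrays were quantile normalized and groups compared by limma 3.58.1 under R 4.3.3, using lmFit and a trended eBayes, over 3 groups without a block, giving 3 residual degrees of freedom plus a prior of 4.40. P-values are two-sided, adjusted by Benjamini-Hochberg over 19938 genes and called below 0.05; they measure the spread between samples labelled as biological replicates. The fit was tested on simulated data. No filter on level was used. When an array was left out, the others were normalized again and a lone array was assumed to vary like those of other groups. Members and lists were chosen with earlier results of these data known. All measured members may be named; of other lists, called genes and up to 4 with the largest difference, with values singled out afterwards for some. Figures used Python 3.11.15 and matplotlib 3.10.9.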

Additional observations from a re-analysis of the deposited data

How the results depend on the processing

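The replicate numbers are shared by the groups, but nothing in the labels pairs them, and deviations of same-numbered arrays correlated at −0.06, 0.08 and 0.03. With the replicate number as a block, 1, 0 and 1 members were called in the 3 comparisons (BCR-ABL against vector, BCR-ABL-Blk against BCR-ABL, BCR-ABL-Blk against vector), as without it. Without normalization between arrays 5, 1 and 2 were called, the last 2 being Ifitm1 and Ifitm3; of all 19938 genes 176, 66 and 561 were then called higher and 225, 13 and 170 lower. The median member lay 0.27 from BCR-ABL in BCR-ABL-Blk cells and 0.03 from vector. With arrays centred on their medians, and without the intensity trend, 0 were called in each comparison. Leaving out 1 array gave 0 to 3 called members for BCR-ABL against vector (median from −0.39 to 0.01), 0 for BCR-ABL-Blk against BCR-ABL (median from −0.03 to 0.13) and 1 to 3 for BCR-ABL-Blk against vector (median from −0.29 to 0.06). The median gap between the vector replicates was 0.08 without normalization, where the median gene had −0.31, and 0.46 with arrays centred. The cause of these shifts was not tested. No called member changed its sign under any of the 13 alternatives; among uncalled values 20, 23 and 20 members changed sign at least once. Each group had 2 arrays, and signal over background was not measured.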

Other observations

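Genes of antigen presentation by MHC class I, many of which interferons induce, were a further list. Of 10 measured genes 0 were called between BCR-ABL and vector (limma) and 1 was lower at an unadjusted p under 0.05, while 9 lay below 0 with a median of −0.16; the median of the interferon response genes was −0.18. Tap1, a subunit of the peptide transporter, had means of 9.97 in vector and 9.61 in BCR-ABL cells (−0.37, adjusted p = 0.547), and Tapbp, which loads peptides, differed by −0.34. The immunoproteasome subunits Psmb8 and Psmb9 differed by −0.19 and −0.12. B2m, the light chain of class I, read between 12.60 and 12.77 on all arrays. The gap between the vector replicates had a median of 0.10 in these genes and of 0.30 in the interferon response genes, a difference that was not tested.

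Within clusters of adjacent members the values did not always go together. Ifit2 and Ifit3 differed by 0.23 and −0.39 between BCR-ABL and vector, Oasl2 and Oasl1 by 0.11 and −0.42, and Ifitm1, Ifitm2 and Ifitm3 by 0.69, 0.07 and 0.15. Differences between such neighbours were not tested.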
